A study of Mus musculus with 2 samples.

Results

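Kainate receptors, the delta receptor GluD1 and the Neto auxiliary subunits were followed through 8 genes chosen by symbol: Grik1, Grik2, Grik3, Grik4, Grik5, Neto1, Neto2 and Grid1. They are 8 of the 55536 annotated genes in the deposited tables, and all 8 passed the minimum of 50 normalised counts used to compare the animals. The RNA came from the left cerebral cortex of adult males of B6CASTF1/J, first-generation hybrids of the laboratory strain C57BL/6J and the wild-derived strain CAST/EiJ, aged 8 to 10 months. There was 1 group of 2 animals, for which the labels name no treatment, transgene or deletion. They are numbered 2 (replicate 1) and 4 (replicate 2) and carry the same donor label. Each library was made from 300 ng of total RNA after reduction of ribosomal RNA, with ERCC spike-ins (synthetic RNAs of known amount). With 1 group no condition could be compared. With 2 animals the smallest p an exact sign-flip test can give is 0.5, so the results are levels, shares and the differences between the animals.

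Kainate receptors are glutamate-gated cation channels assembled as tetramers from the pore-forming subunits GluK1 to GluK5, the products of Grik1 to Grik5. GluK1, GluK2 and GluK3 can form channels alone, whereas GluK4 and GluK5 bind glutamate with high affinity and reach the surface as working channels only together with one of the former. Neto1 and Neto2 are single-pass membrane proteins that bind kainate receptors and slow their gating. GluD1, encoded by Grid1, belongs to the same receptor superfamily but is not a conventional glutamate-gated channel; it acts as a synaptic organiser by binding cerebellins, which in turn bind presynaptic neurexins.

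The pore is a part of the coding sequence that the receptor subunits share. The stretches below run from just before the Q/R site, a codon in the pore loop whose edited form changes calcium permeability in GluK1 and GluK2, to the conserved motif at the gate of the channel in the third membrane helix. They are 123 bases long, are read 5′ to 3′ on the coding strand from the GENCODE M21 transcripts (C57BL/6J reference, build mm10), and carry the Q/R-site codon and the codons of the gate motif in capitals.
Grik1-201: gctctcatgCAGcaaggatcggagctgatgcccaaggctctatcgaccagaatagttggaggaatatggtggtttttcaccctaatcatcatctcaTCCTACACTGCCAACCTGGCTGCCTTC
Grik2-202: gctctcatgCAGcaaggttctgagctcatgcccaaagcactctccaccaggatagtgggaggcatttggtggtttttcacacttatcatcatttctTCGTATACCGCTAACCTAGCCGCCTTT
Grik3-201: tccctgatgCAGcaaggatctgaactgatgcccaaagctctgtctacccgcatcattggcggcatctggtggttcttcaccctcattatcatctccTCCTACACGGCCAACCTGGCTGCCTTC
Grik4-201: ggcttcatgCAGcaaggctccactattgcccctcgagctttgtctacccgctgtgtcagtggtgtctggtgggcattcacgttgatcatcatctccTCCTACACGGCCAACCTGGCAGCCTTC
Grik5-201: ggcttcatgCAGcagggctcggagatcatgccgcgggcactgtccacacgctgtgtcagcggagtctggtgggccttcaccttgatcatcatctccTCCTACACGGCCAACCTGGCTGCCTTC
Grid1-201: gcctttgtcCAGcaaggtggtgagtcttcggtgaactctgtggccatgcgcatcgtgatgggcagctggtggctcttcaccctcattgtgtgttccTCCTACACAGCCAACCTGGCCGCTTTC
In the reference all 6 genes carry CAG, the unedited glutamine codon, at this position. The site was located by its glutamine in the translated sequence, so only the choice of codon was free to vary. Editing of the RNA was not analysed here. Within the known subfamilies, Grik4 and Grik5 had 83.7% identical bases, Grik1 and Grik3 83.7%, Grik1 and Grik2 82.1% and Grik2 and Grik3 76.4%. Between the subfamilies identity ran from 62.6% (Grik2 and Grik4) to 75.6% (Grik3 and Grik5). Grid1 lay between 58.5% (with Grik4) and 68.3% (with Grik3). The Neto proteins have no pore and are not part of this comparison. Over the whole transcripts, 31-base words of the 8 genes were sought in genes outside the 8. At most 2.50% of any gene's words (Grid1) occurred there on the same strand, and at most 2.40% (Neto1) on the opposite strand. Words shared with another of the 8 were counted apart and numbered at most 54 (Grik3, of its 8882 words).

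The cortex libraries held total expected counts of 26925514 and 30143684, of which 20715 and 24331 fell on the 8 genes. Excitatory neuron markers had a median of 244.7 TPM in replicate 1 and 260.1 in replicate 2, and the 5 cerebellar markers 0.19 and 0.24 TPM. Of the latter, Calb2 (11.1 and 14.5 TPM) and Neurod1 (4.76 and 6.10 TPM) lay above this and were at least 1.2-fold higher in replicate 2, while Gabra6 was at 0 in both libraries. Markers of striatal projection neurons were also present, at summed levels of 504 and 539 TPM over 6 genes. Choroid plexus markers differed between the libraries: their 6 genes summed to 740 TPM in replicate 1 and 8.44 in replicate 2, and the 5 with enough counts were all at least 2-fold higher in replicate 1. The part of these markers in the differences between the animals given below was not tested. In tissue RNA, fewer cells of a type and less RNA per cell cannot be told apart.

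**Figure D1:**
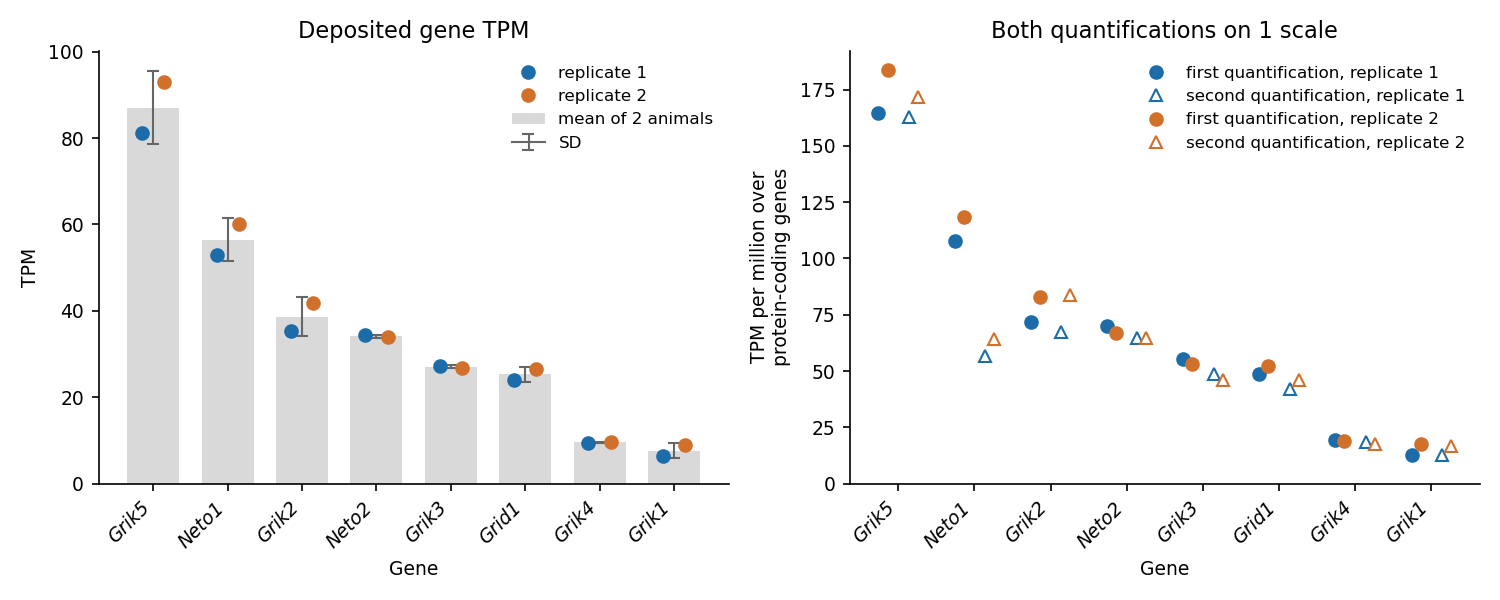
Levels of the 8 genes, ordered by mean deposited TPM. The left panel shows each animal (points), the mean of the 2 animals (bars) and the SD (error bars). The right panel shows both quantifications rescaled so that protein-coding genes have the same sum, where Neto1 falls in the order, from 108 and 119 to 56.8 and 64.4.

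Among the pore-forming subunits the order of the levels was Grik5, Grik2, Grik3, Grik4 and Grik1. Levels are in TPM, a unit that divides by transcript length and so can be compared between genes. Grik5, the high-affinity subunit GluK5, stood at 81.1 TPM in replicate 1 and 93.0 in replicate 2 (mean 87.1 ± 8.38 SD, n = 2), above 94.7% of the protein-coding genes. Grik2, which encodes GluK2, the subunit most often paired with GluK5 in the forebrain, was at 35.4 and 41.9 TPM (38.6 ± 4.53). Both genes were higher in replicate 2. Grik3, encoding the low-affinity subunit GluK3, was at 27.3 and 26.8 TPM (27.0 ± 0.339). Grik4, encoding the other high-affinity subunit GluK4, was at 9.47 and 9.59 TPM (9.53 ± 0.0849). Grik1, encoding GluK1, was lowest at 6.36 and 8.91 TPM (7.64 ± 1.80), and still above 57.5% of the protein-coding genes.

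Grik5 made the largest share of the kainate receptor transcripts in both animals. Of the summed TPM of Grik1 to Grik5, Grik5 made 50.8% in replicate 1 and 51.6% in replicate 2 (51.2% ± 0.572). Grik2 made 22.7% ± 0.735, Grik3 16.0% ± 1.56, Grik4 5.63% ± 0.429 and Grik1 4.47% ± 0.681. The high-affinity pair Grik4 and Grik5 together stood at 1.32 ± 0.0077 times the sum of Grik1, Grik2 and Grik3. Within the pair, Grik5 was 8.57-fold above Grik4 in replicate 1 and 9.70-fold in replicate 2. The AMPA receptor pore genes Gria1 to Gria4, the other fast glutamate receptors, summed to 2.80 ± 0.114 times the 5 Grik genes; Gria2, which makes AMPA receptors impermeable to calcium, led them at 211 ± 5.46 TPM and Gria4 was lowest at 42.0 ± 2.97.

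Of the auxiliary subunits, Neto1 was at 53.0 and 60.0 TPM (56.5 ± 4.96) and Neto2 at 34.4 and 33.9 TPM (34.1 ± 0.339). Grid1 was at 24.0 and 26.5 TPM (25.3 ± 1.77), above 78.9% of the protein-coding genes. In the order of all 8 genes (Grik5, Neto1, Grik2, Neto2, Grik3, Grid1, Grik4, Grik1) the values of the 2 animals did not overlap between any of the 7 pairs of neighbours. The margins were narrow in 3 pairs, where the intervals of TPM deposited by the authors overlapped in at least 1 library. Grik2 exceeded Neto2 by 1.03-fold in replicate 1 and 1.24-fold in replicate 2. Grik3 exceeded Grid1 by 1.13-fold and 1.01-fold, and Grik4 exceeded Grik1 by 1.49-fold and 1.08-fold. For Grik3 itself the deposited TPM lay just above its own interval in both libraries (27.3 against an upper bound of 27.0 in replicate 1, and 26.8 against 26.6 in replicate 2), so these intervals are not centred on the TPM. In the second deposited quantification, made from the reads, the order was Grik5, Grik2, Neto2, Neto1, Grik3, Grid1, Grik4 and Grik1. In its TPM as deposited only 2 of the 7 neighbouring pairs did not overlap, since all 8 genes were higher in replicate 2. After rescaling to protein-coding genes, an alternative chosen after seeing the data, 6 of 7 did not.

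Much of the level of Neto1 came from a single short transcript. Neto1-201, the full coding transcript of 8352 bases, stood at 25.0 and 26.3 TPM and held 3636 and 4162 of the expected counts. Neto1-203 is a transcript of 384 bases with no coding sequence, and 27 of its 354 words of 31 bases occur in no other transcript of the gene. It was given 19.4 and 24.7 TPM, which was 36.5% and 41.2% of the gene's TPM, from 97 and 134 expected counts, 2.55% and 3.08% of the gene's counts. The second quantification listed it at 0 in both libraries, and gave Neto1-201 4108 and 4771 estimated counts. The remaining transcript, Neto1-202 of 527 bases, was at 8.60 and 8.94 TPM, from 65 and 73 expected counts. It is annotated as protein-coding, with 203 coding bases, and so enters the coding sum. Counted over protein-coding transcripts only, Neto1 was at 33.6 and 35.3 TPM and Neto2 at 30.9 and 32.8. Neto1-201 alone lay below that level of Neto2 in both animals.

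Accordingly Neto1 exceeded Neto2 by 1.54-fold and 1.77-fold in gene TPM (mean 1.66 ± 0.162), by 1.09-fold and 1.08-fold over coding transcripts, and not at all in the second quantification, where the ratio was 0.879 and 0.996. The higher level of Neto1 is therefore not a result that both quantifications share. Together the Neto genes stood at 0.547 and 0.521 of the summed Grik TPM (0.534 ± 0.0183), at 0.448 ± 0.0152 over coding transcripts and at 0.388 ± 0.0045 in the second quantification. The 8 AMPA receptor auxiliary genes of the list, led by Cnih2 (80.1 ± 1.44 TPM) with Cacng5 lowest (6.58 ± 0.721), stood at 0.782 ± 0.0159 of the 4 AMPA pore genes in gene TPM, 0.934 ± 0.0039 over coding transcripts and 0.888 ± 0.0079 in the second quantification. The Neto to Grik ratio was the lower of the 2 in both animals under each of these 3 measures. It sets 2 genes over 5 against 8 over 4, so its direction depends in part on the length of the lists. In gene TPM the median was 45.3 for the Neto genes and 45.2 for the AMPA auxiliary genes. This measure includes the short non-coding transcript of Neto1, which adds nothing to the other 2 measures, where medians were not compared. From gene TPM to the second quantification, the Neto sum fell from 87.4 and 93.9 to 56.4 and 85.4. The AMPA auxiliary sum went from 364.7 and 377.2 to 337.5 and 500.1. Over coding transcripts the sums were 64.6 and 68.1 against 347.5 and 357.8. The near-equal medians are shown for gene TPM only.

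**Figure D2:**
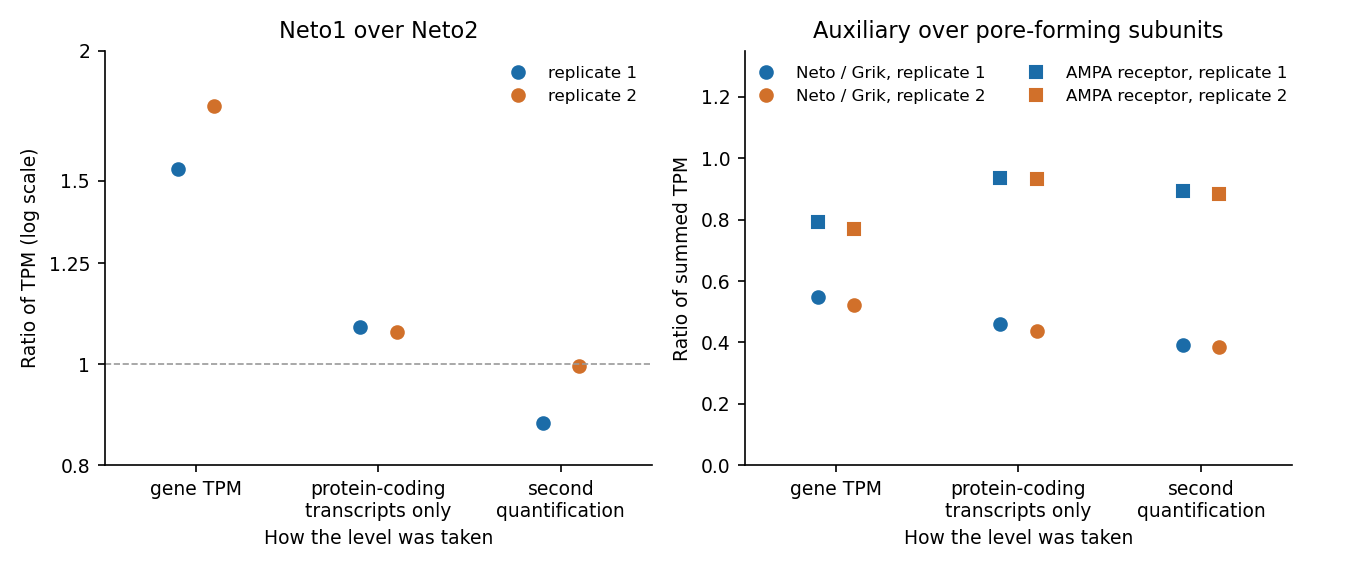
Ratios of auxiliary subunits by animal under 3 ways of taking the level. On the left, Neto1 over Neto2 (log axis, dashed line at 1) falls from 1.54 and 1.77 to 0.879 and 0.996; on the right, the Neto to Grik ratio (circles) lies below the AMPA receptor ratio (squares) throughout.

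Neto2 is on chromosome 8 (ENSMUSG00000036902.11, chr8:85636588-85700924, minus strand, mm10), with alternative first exons 9915 bases apart. Neto2-201, which begins at the exon nearer to the rest of the gene, stood at 16.5 and 18.5 TPM and Neto2-205, which begins at the distant exon, at 14.4 and 14.3. All transcripts from the near exon made 57.9% ± 0.240 of the gene's TPM and those from the distant exon 42.1% ± 0.233. Transcripts are counted whole, so these shares also rest on reads outside the first exons. At the 3′ end Neto2-201 reaches base 85636588 and Neto2-205 stops at 85639432. Neto2-203 (distant exon) and Neto2-204 (near exon) have no 31-base word of their own. In the second quantification the shares were 48.9% ± 2.33 and 51.1% ± 2.33, and Neto2-205 led in place of Neto2-201. Transcripts from both first exons were thus present in both animals, and by mean share of TPM the order between them differed between the quantifications. The coding sequences start differently, and Neto2-205 also has 21 coding bases (chr8:85663387-85663407) that Neto2-201 lacks. The first coding exon of Neto2-201 (chr8:85690835-85690973) and that of Neto2-205 (chr8:85700641-85700674) are shown because they replace each other at the start of the coding sequence, with the first codon in capitals.
Neto2-201: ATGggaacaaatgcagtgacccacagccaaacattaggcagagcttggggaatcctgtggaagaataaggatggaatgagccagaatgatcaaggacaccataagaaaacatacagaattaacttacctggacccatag
Neto2-205: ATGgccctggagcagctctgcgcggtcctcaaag
The 250 bases before each start site in RefSeq (GRCm38.p6) are shown because they differ sharply in base composition. CG pairs are in capitals. The first line is the near start (chr8:85691010-85691259, minus strand) and the second the distant start (chr8:85700925-85701174, minus strand).
near start: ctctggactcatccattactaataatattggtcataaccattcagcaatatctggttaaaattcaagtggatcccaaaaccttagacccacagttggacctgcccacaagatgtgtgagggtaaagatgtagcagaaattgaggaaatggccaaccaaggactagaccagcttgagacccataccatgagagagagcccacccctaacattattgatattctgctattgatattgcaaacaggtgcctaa
distant start: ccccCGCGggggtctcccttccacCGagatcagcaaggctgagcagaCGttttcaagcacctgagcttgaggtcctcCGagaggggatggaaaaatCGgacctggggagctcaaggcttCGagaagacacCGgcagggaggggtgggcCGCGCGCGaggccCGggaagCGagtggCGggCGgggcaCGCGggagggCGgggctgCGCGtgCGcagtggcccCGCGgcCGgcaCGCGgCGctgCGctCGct
Over the 300 bases from 250 before to 50 after the start, the near start had 0 CG pairs and 42.7% GC and the distant start 36 CG pairs and 72.0% GC. The median of the 32851 promoters in the table was 7 CG pairs, and 93.8% of them had fewer than the distant start. Neither window held TATAAA on either strand, a motif present in 13.6% of the promoters.

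**Figure D3:**
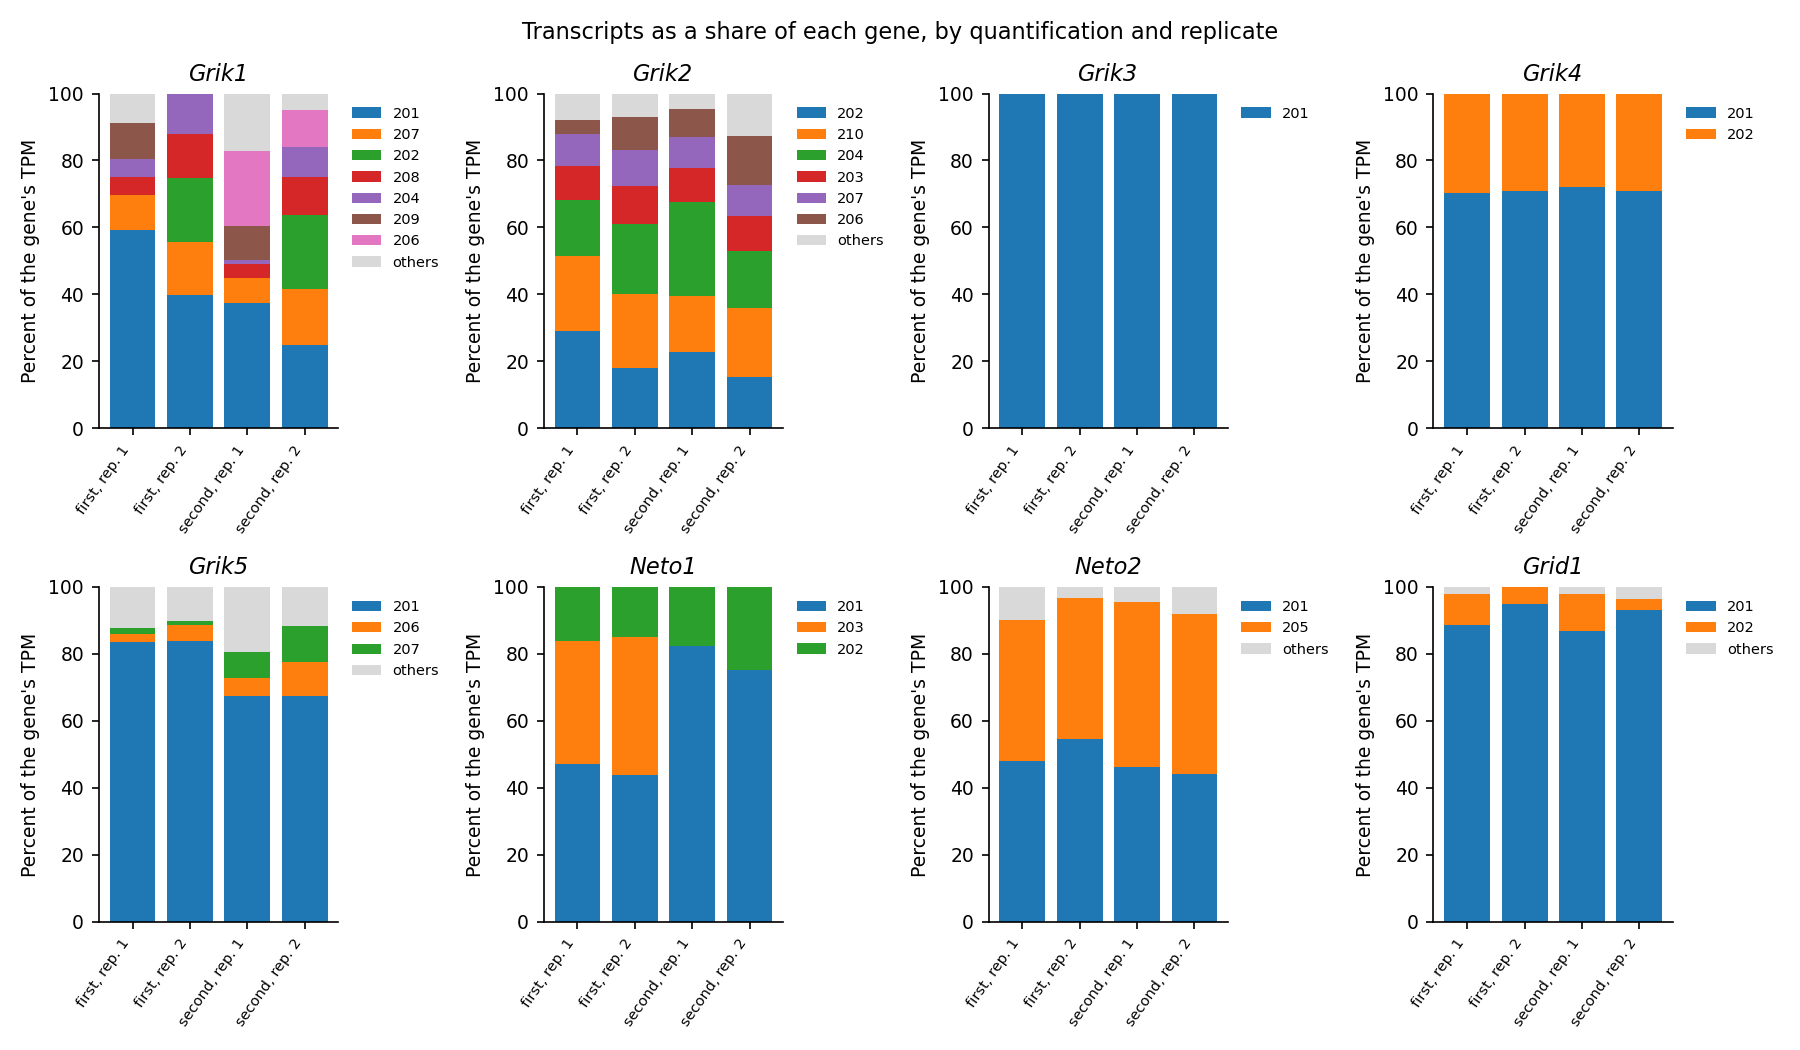
Share of each transcript in its gene's TPM, for the 8 genes, in both quantifications and both replicates. Transcripts with at least 10% in any column have a colour of their own, and the rest are pooled in grey; Neto1-203 appears only in the first quantification.

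By share of TPM, the leading transcript was the same in both libraries and both quantifications for 6 of the 8 genes, the exceptions being Grik2 and Neto2. By share of counts it was the same for 7. There Neto2-201 led with 64.65% and 69.48% of its gene's counts, and 62.49% and 58.69% in the second quantification. The genes have 43 annotated transcripts in all, of which 4 were listed at 0 in both libraries in the first quantification. Of those 4, Grik1-206 held 22.4% and 11.0% of its gene in the second quantification. Grik1-210 held 10.0% and 4.97% there and Neto2-203 0.121% and 4.97%, while Grik2-209 stayed at 0. Grik3 (ENSMUSG00000001985.9, chr4:125490700-125714173, plus strand) has 1 annotated transcript. Grik4 (ENSMUSG00000032017.14, chr9:42518135-42944493, minus strand) had Grik4-201 at 70.2% and 71.0% and Grik4-202 at 29.8% and 29.0%, which share a coding sequence of 2868 bases. Grik5-201 made 83.5% and 83.8% of Grik5 (ENSMUSG00000003378.9, chr7:25009849-25072346, minus strand), against 67.3% in each library in the second quantification. Grid1-201 made 88.7% and 94.9% of Grid1 (ENSMUSG00000041078.7, chr14:34820108-35583379, plus strand). For these 4 genes 1 coding form carried most of the transcript level.

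Grik2 (ENSMUSG00000056073.16, chr10:49094833-49788766, minus strand) was the most divided. Its 11 transcripts include 2 coding forms that differ in the intracellular tail, where the GluK2 protein binds scaffold proteins. The form with 2724 coding bases (Grik2-202 and Grik2-207) stood at 13.6 and 12.1 TPM and that with 2607 coding bases (Grik2-201 and Grik2-204) at 8.33 and 10.6. In the second quantification they were at 10.1 and 13.7 against 8.73 and 13.8 TPM. The longer form was higher in both animals in the first quantification, but in the second quantification this held in replicate 1 and not in replicate 2. The ends are shown because they are what separates the forms: the 162 last coding bases of Grik2-202 (chr10:49101111-49101272) and the 45 last coding bases of Grik2-204 (chr10:49105021-49105065), both on the minus strand, where Grik2-202 skips the exon that holds the latter.
Grik2-202: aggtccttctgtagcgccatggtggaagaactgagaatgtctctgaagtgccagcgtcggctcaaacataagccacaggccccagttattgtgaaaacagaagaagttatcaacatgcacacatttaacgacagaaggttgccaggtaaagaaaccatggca
Grik2-204: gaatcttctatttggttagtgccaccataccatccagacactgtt
Grik2-210, with only 1014 coding bases, ends upstream of the pore stretch printed above. It held 22.5% and 21.8% of the gene's TPM, from 279 and 347 expected counts, and 16.8% and 20.6% in the second quantification. The leading transcript was Grik2-202 in replicate 1 and Grik2-210 in replicate 2, and Grik2-204 and Grik2-210 in the second quantification. Grik2-203, a transcript with a retained intron, held 10.3% and 11.3%.

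Grik1 (ENSMUSG00000022935.16, chr16:87895900-88290265, minus strand) was the least certain. Grik1-201 led with 59.2% and 39.8% of the gene's TPM and 37.3% and 24.8% in the second quantification. Grik1-202 contains an extra coding exon of 87 bases (chr16:87896809-87896895) near the 3′ end of the coding sequence, in the part that encodes the tail, shown here because it alters the tail; Grik1-209 holds the same exon.
Grik1-202: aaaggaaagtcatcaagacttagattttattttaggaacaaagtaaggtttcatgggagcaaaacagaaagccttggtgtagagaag
Grik1-202 was listed at 0 in replicate 1 and at 1.72 TPM in replicate 2, and at 0 and 2.42 TPM in the second quantification. The deposited interval of Grik1-202 reached 1.30 TPM in replicate 1 and began at 0.335 in replicate 2, so the intervals overlapped. Grik1-209 went the other way, with 0.67 TPM in replicate 1 and 0 in replicate 2. In the second quantification Grik1-209 was at 0.611 and 0.0017 TPM. Its deposited interval in replicate 1 ran from 7.22e-08 to 0.898 TPM. Intervals of single transcripts do not bound the sum of those that hold the exon. Whether the exon was present in replicate 1 therefore stays undecided. Neither Grik1-201 nor Grik1-202 has a 31-base word that no other transcript of the gene holds. Non-coding transcripts of Grik1 held 23.0% of its TPM in replicate 1 and 40.8% in replicate 2; Grik1-207, with a retained intron, held 10.4% and 15.7%.

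Between the animals, normalised counts of the 8 genes differed little. The comparison used the log2 ratio of replicate 1 over replicate 2 after TMM scaling, and the interval given is an exact 95% binomial one that covers counting error only. No member was at least 2-fold apart, against 0.861% of the 14169 genes compared in either direction. One member, Grik1, was at least 1.2-fold apart: its normalised counts were 380 in replicate 1 and 512 in replicate 2, a ratio of 0.743 (0.647 to 0.849), and its log2 ratio -0.43 became -0.33 in the second quantification. The difference exceeded that of 92.5% of the genes compared. Non-coding transcripts held 20.15% of the expected counts of Grik1 in replicate 1 and 35.12% in replicate 2. Over protein-coding transcripts only, Grik1 stood at 4.9 and 5.27 TPM, against 6.36 and 8.91 TPM for the whole gene. For the 1.2-fold threshold the background was 9.56% of genes higher in replicate 2 and 8.76% higher in replicate 1, so 1 of 8 genes is near the background.

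Grid1 came next, with 2268 and 2576 normalised counts and a log2 ratio of -0.18, followed by Grik2 (-0.14) and Grik5 (-0.12). For these 3 and Grik1 the counting interval lay wholly below equality, and for Grik3 (0.07) just above it. Neto1 (-0.04), Neto2 (-0.01) and Grik4 (0.03) had intervals that included equality. In all 6 of the 8 genes were higher in replicate 2, with a median log2 ratio of -0.08, where over all genes compared the median was 0.00077 and 49.9% were higher in replicate 2. Scaling by the ERCC spike-ins raises every log2 ratio alike: the median over all genes became 0.07 and that of the 8 genes -0.01, with 4 of the 8 higher in replicate 2. The median absolute difference over all genes was 1.08-fold.

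**Figure D4:**
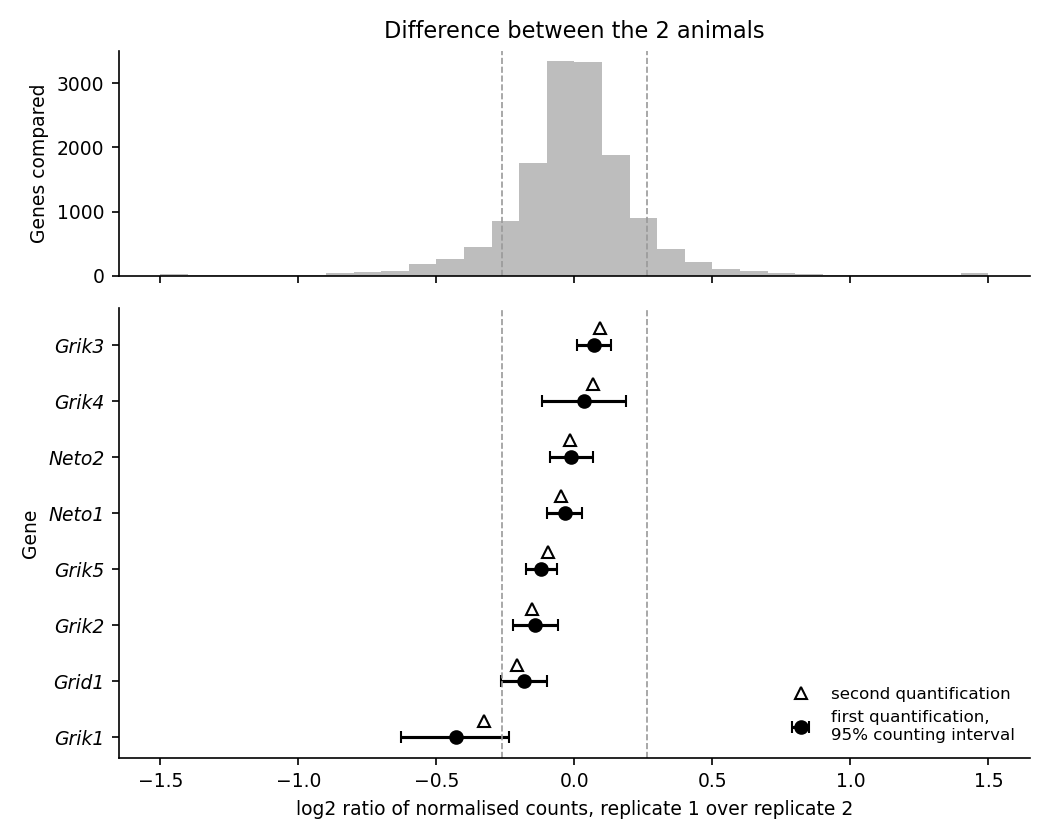
Difference between the animals. The lower panel shows the log2 ratio of each gene (points, with 95% counting intervals, and open triangles for the second quantification); the upper panel is a histogram of the 14169 genes compared, whose end bars also hold genes beyond the axis. Dashed lines mark 1.2-fold; Grik1 alone lies past one, at -0.43.

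Genes that act with these receptors were taken from lists of related genes, and none of their members with enough counts was 2-fold apart between the animals. Over all genes compared the share was 0.861%, so its absence from short lists says little. At 1.2-fold the shares were 8.76% higher in replicate 1 and 9.56% higher in replicate 2. Of the 9 genes listed with the delta receptor, Cbln3, a cerebellin known from the cerebellum, was lowest with 12 and 14 expected counts. Of these, 8 had enough counts: the cerebellins Cbln2 (log2 ratio 0.33) and Cbln4 (0.45) were at least 1.2-fold higher in replicate 1, and 1 gene was in replicate 2. The median log2 ratio of the 8 was -0.01. Of the 5 C1q-like ligands and receptors, among which C1ql2 and C1ql3 proteins bind kainate receptors, the receptor Adgrb3 led at 46.8 ± 3.84 TPM and C1ql4 was lowest, with 0 and 1 counts. Only C1ql1 of the 4 with enough counts was at least 1.2-fold apart, higher in replicate 2 (log2 ratio -0.33). Of the 13 listed binding and trafficking proteins, 12 were matched by symbol and none was 1.2-fold apart; the scaffold Dlg4 (PSD-95) was highest at 369 ± 10.6 TPM and Grip1 lowest at 9.23 ± 0.771. Of the 3 adenosine deaminase genes, Adar was at 70.0 ± 7.44 TPM and Adarb2, a relative without known editing activity, at 13.1 ± 2.23; Adarb1, whose enzyme edits the Q/R site, was at 61.2 ± 0.163 TPM. None of the 3 was 1.2-fold apart.

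Among other annotated genes over the members, the antisense gene AC113599.1 shares 219 exonic bases with Neto1 (ENSMUSG00000050321.3, chr18:86394952-86506718, plus strand) and was listed at 0 in both libraries. No label or header states whether strand was used in counting, so reads of Neto1 and of this gene cannot be told apart where they overlap.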

How the data were processed

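Total RNA of 2 cortices of 1 group was sequenced. For each library the authors deposited, per the file headers, a gene and a transcript table on mm10 with GENCODE M21, made from alignments to the transcriptome. In these tables the authors deposited expected counts, TPM, FPKM, the percent of each transcript in its gene and the bounds of a TPM interval (a signal never below 0, level not given). Another transcript table deposited by the authors holds estimated counts and TPM made directly from the reads. No label or header names the programs or their settings. Reads of the CAST genome were placed on the C57BL/6J reference, and loss by allele was not analysed here.

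The members, gene lists and thresholds were chosen with earlier results of these data known. Expected counts were rounded and 356 ribosomal RNA genes left out. Ratios came from edgeR 4.0.16 (TMM, prior count 2; R 4.3.3), for genes whose normalised counts averaged 50 or more, and the script was checked on simulated data. No count model was fitted and no p-value computed, since 1 group of 2 has no contrast. DESeq2 1.42.0 gave alternative size factors. TPM of the second quantification was summed per gene and is given as deposited except where rescaling to protein-coding genes is named; 86 genes had no entry there. Named were all 8 members; of each list the highest, the lowest and any gene 2-fold apart (for the delta receptor list the highest is not reported here); and transcripts that led in any table or had a mean share of at least 10%. Other genes and transcripts named were chosen after their values were seen. The spread between the animals may in part be technical.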

Additional observations from a re-analysis of the deposited data

How the results depend on the processing

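Of 7 neighbouring pairs in the order of levels, all 7 did not overlap in gene TPM, but 2 in the second quantification's TPM as deposited, where all levels of replicate 2 were higher, and 6 after rescaling to protein-coding genes and 5 over coding transcripts (both added after seeing the data). The Grik5 share moved to 49.1% over coding transcripts. The Neto to Grik ratio moved to 0.388 in the second quantification (also 0.388 after rescaling) and to 0.448 over coding transcripts. The log2 ratio of Neto1 to Neto2 changed sign to -0.10 in the second quantification (-0.10 after rescaling) and moved to 0.11 over coding transcripts. The value of -0.10 lay within its SD (0.127) of equality. The cause was not tested beyond the short transcripts described above. Alternatives to the 0 and 1 members at least 2-fold and 1.2-fold apart changed neither count, and 48 of 48 member ratios kept their side of 1.2-fold. None of these alternatives was limited to coding transcripts. Named transcripts' shares moved by more than their SD in the second quantification for 11 of 17, and levels for 5 of 8 members. Levels were compared as deposited, without rescaling, and each SD rests on 2 values. Grik3 thus counted as moved (27.0 to 26.5 TPM) and Grik5 did not (87.1 to 94.5 TPM). No paired analysis was possible because there is 1 group. The count of neighbours that do not overlap cannot be had without either replicate. Depth limits Grik1, with 358 and 542 counts.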
